A study of Mus musculus with 20 samples.

Results

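Toll-like receptor genes and *Cd14* were followed in RNA-Seq counts of BV-2 cells, a microglial line of the mouse. The 10 genes, *Tlr1*, *Tlr2*, *Tlr3*, *Tlr4*, *Tlr6*, *Tlr7*, *Tlr8*, *Tlr9*, *Tlr13* and *Cd14*, were chosen by name, as rows of the count table whose Ensembl identifier maps to these symbols, by a rule that uses no measured value. The choice was made with earlier results of these data known. The set is 10 of 55487 genes counted, and all 10 were among the 12799 genes that passed the filter on low counts and were tested. The receptor genes *Tlr5*, *Tlr11* and *Tlr12*, which are not in the set, did not pass it. *Tlr8* passed it through the untreated young cultures and *Tlr3* through the LPS-treated ones, where each was highest.

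Toll-like receptors are membrane proteins that bind molecules typical of microbes or of damaged cells and start a signalling cascade through their cytoplasmic TIR domain. *Tlr1*, *Tlr2*, *Tlr4* and *Tlr6* encode receptors of the cell surface, whereas *Tlr3*, *Tlr7*, *Tlr8*, *Tlr9* and *Tlr13* encode receptors of nucleic acids that work in endosomes. *Cd14* encodes a surface protein that hands lipopolysaccharide (LPS), a component of the outer membrane of Gram-negative bacteria, to the complex of TLR4 and MD-2, and it also assists other receptors of the family. All of these receptors signal through the adaptor MyD88 except TLR3, which uses TRIF, and TLR4 uses both. In the brain, microglia are the main cells that carry them.

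The 20 cultures fall into 4 groups of 5. All are wild-type BV-2 cells, an immortalized microglial line from brain cultures of C57BL/6 mice, grown in the same medium with serum. Young cultures are control cells at low passage, and aged cultures are cells of the same line after long-term cultivation. The aged groups thus stand for time in culture and not for the age of an animal. By the study's methods, frozen aliquots of both ages were thawed at the same time. LPS was given to 5 cultures of each age at 100 ng/ml for 6 h, and 5 of each had none. The labels give a batch number from 1 to 5 that is shared by 1 culture of each group. Every p-value measures the spread between these cultures of a single line, part of which may be technical. The study's methods do not say whether the aged cultures came from more than 1 long-term cultivation. If they came from 1, changes particular to that cultivation cannot be told apart from time in culture.

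Libraries held between 11371508 and 16829292 counts in total, and 3 counts, taken as the floor of detection in each library, correspond to 0.165 to 0.296 CPM, the unit of counts scaled to a common library size with TMM factors. Floors and counting intervals cover counting error only. Of 11 markers of microglia and macrophages, none was at 0 in a whole group, and *Csf1r*, *Spi1*, *Adgre1* and *Trem2* were abundant, but *Cx3cr1* (0 to 28 counts) and *P2ry12* (0 to 31 counts), which define resting microglia in tissue, were barely detected. Markers of astrocytes, neurons, oligodendrocytes and fibroblasts summed to at most 1.55 CPM per library, with *Aqp4*, *Map2*, *Snap25*, *Syt1*, *Mog*, *Col1a2* and *Pdgfra* at 0 in all 20 libraries. The 4 LPS-response genes *Il1b*, *Nos2*, *Ccl5* and *Acod1* were higher with LPS in both ages by edgeR's quasi-likelihood test, and their summed level was 2.34 to 127 CPM without LPS and 2033 to 5088 CPM with it.

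The genes lie on GRCm38 as follows in the GENCODE M21 annotation. *Tlr1* (chr5:64924679-64933563, minus strand) and *Tlr6* (chr5:64952031-64960097, minus strand) are neighbours, 18467 bases apart with no annotated gene between them. *Tlr8* (chrX:167242696-167264329, minus strand) and *Tlr7* (chrX:167304929-167330558, minus strand) are neighbours as well, 40599 bases apart with no annotated gene between. *Tlr13* (chrX:106143204-106160493, plus strand) lies elsewhere on the same chromosome. *Tlr2* is at chr3:83836272-83841767 (minus strand), *Tlr3* at chr8:45395665-45411080 (minus strand), *Tlr4* at chr4:66827584-66930284 (plus strand) and *Tlr9* at chr9:106222598-106226883 (plus strand). The exons of *Tlr3* overlap those of the antisense gene *Gm45542* over 381 bases, 7.3% of their length, and *Gm45542* held 0 counts in every library.

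*Tlr1* and *Tlr6* share sequence. Of the 50-base words in *Tlr1* transcripts, 13.6% also occur in *Tlr6*, and 12.3% of the words in *Tlr6* occur in *Tlr1*. The other members shared at most 5.3% of such words with any other gene, in *Tlr3* with the antisense gene. The longest identical run of *Tlr1* and *Tlr6* is 229 bases and lies inside both coding sequences. It is shown because reads that lie wholly within it cannot be assigned to either gene, and how the authors' counting treated such reads is not given in the sources used here, so values of *Tlr1* and *Tlr6* carry that uncertainty. No letter is in capitals in this run.
*Tlr1* and *Tlr6*: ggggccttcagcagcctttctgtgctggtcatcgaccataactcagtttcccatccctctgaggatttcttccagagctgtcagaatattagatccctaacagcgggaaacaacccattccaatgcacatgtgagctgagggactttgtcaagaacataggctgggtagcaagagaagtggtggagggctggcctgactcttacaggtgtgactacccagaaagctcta

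Upstream sequence was matched in the RefSeq promoter table (GRCm38.p6) for 7 of the 10 genes, in 9 windows of 250 bases before the start. *Tlr4*, *Tlr7* and *Cd14* had no entry. The windows were searched on both strands for the kappaB motif of NF-kappaB, the interferon response core (GAAA followed after any 2 bases by another GAAA), the AP-1 motif TGANTCA, the PU-box GAGGAA and the GAS motif TTCNNNGAA. Windows of 4 genes are printed, 2 that rose with LPS (*Tlr2* and *Tlr6*) and 2 that fell with LPS and with age (*Tlr8* and *Tlr13*), 5′ to 3′ on the gene's strand, without bases that GENCODE places in an exon and with matches in capitals.
*Tlr2* (chr3:83841768-83841858): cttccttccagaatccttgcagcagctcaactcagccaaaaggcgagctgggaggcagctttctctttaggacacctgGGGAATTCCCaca
*Tlr6* (chr5:64959167-64959416): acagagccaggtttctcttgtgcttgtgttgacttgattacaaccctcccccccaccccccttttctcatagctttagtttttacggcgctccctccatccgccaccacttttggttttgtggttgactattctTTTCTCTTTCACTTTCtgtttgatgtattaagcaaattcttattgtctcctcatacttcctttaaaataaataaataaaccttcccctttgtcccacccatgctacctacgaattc
*Tlr8* (chrX:167264330-167264579): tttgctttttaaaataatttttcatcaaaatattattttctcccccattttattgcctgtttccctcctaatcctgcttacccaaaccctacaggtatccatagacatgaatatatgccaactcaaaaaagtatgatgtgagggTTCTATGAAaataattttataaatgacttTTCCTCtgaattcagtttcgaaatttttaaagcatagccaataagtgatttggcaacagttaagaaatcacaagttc
*Tlr13* (chrX:106143025-106143203): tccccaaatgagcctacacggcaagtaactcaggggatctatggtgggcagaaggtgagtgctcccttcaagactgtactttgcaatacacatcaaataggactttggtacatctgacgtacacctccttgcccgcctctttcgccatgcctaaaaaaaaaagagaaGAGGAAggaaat

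The *Tlr2* window held 1 kappaB match, which reads the same on both strands, and the *Tlr3* window held another in a part not printed here because it overlaps an exon. Such a match was found in 5% of the 32851 windows in the table. Of the 2 *Tlr6* windows, the one printed held 2 overlapping matches to the interferon response core on the opposite strand, a motif present in 2.98% of windows. It lies inside the annotated span of *Tlr6* but outside its exons, and the other window, at the annotated start of the gene, held no match to any of the 5 motifs. The PU-box was found in windows of *Tlr1*, *Tlr8*, *Tlr9* and *Tlr13* and in 23.3% of all windows, the GAS motif in windows of *Tlr1* and *Tlr8* and in 7.02%, and the AP-1 motif in the *Tlr9* window and in 6.75%. These matches describe letters in a window, not bound sites.

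Per exon length, the genes differed widely in level, and their order was not the same with and without LPS. Levels between genes are given as RPKM, the TMM-normalized CPM divided by the kilobases of exon, as mean ± SD of 5 cultures. In young untreated cultures, *Tlr2* (47.2 ± 5.98), *Cd14* (44.7 ± 15.8), *Tlr13* (35.0 ± 3.24) and *Tlr7* (33.3 ± 1.22) stood highest, and each overlapped its neighbour in the order. *Tlr4* (12.5 ± 0.823), *Tlr1* (10.6 ± 0.565), *Tlr9* (7.87 ± 0.735) and *Tlr6* (3.04 ± 0.236) followed without overlap, and *Tlr8* (0.736 ± 0.127) and *Tlr3* (0.170 ± 0.0405) were lowest. Aged untreated cultures kept *Tlr2* (37.1 ± 4.67), *Tlr7* (31.2 ± 2.15), *Cd14* (30.2 ± 8.50) and *Tlr13* (24.4 ± 4.89) as an overlapping top 4, but *Tlr1* (6.12 ± 0.611) stood below *Tlr9* (7.06 ± 0.594), with overlapping ranges.

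With LPS, *Cd14* (320 ± 70.8 RPKM in young and 206 ± 24.8 in aged cultures) and *Tlr2* (229 ± 45.9 and 162 ± 28.3) were the most abundant in both ages, overlapped each other and lay apart from *Tlr7* (41.6 ± 4.34 and 31.6 ± 2.25). *Tlr4*, the LPS receptor itself, stood at 6.08 ± 0.623 and 6.52 ± 1.11 RPKM, the seventh and the sixth level of the 10. *Tlr3* rose above *Tlr8* in both ages, to 3.13 ± 0.807 RPKM in young and 0.961 ± 0.738 RPKM in aged cultures.

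**Figure D1:**
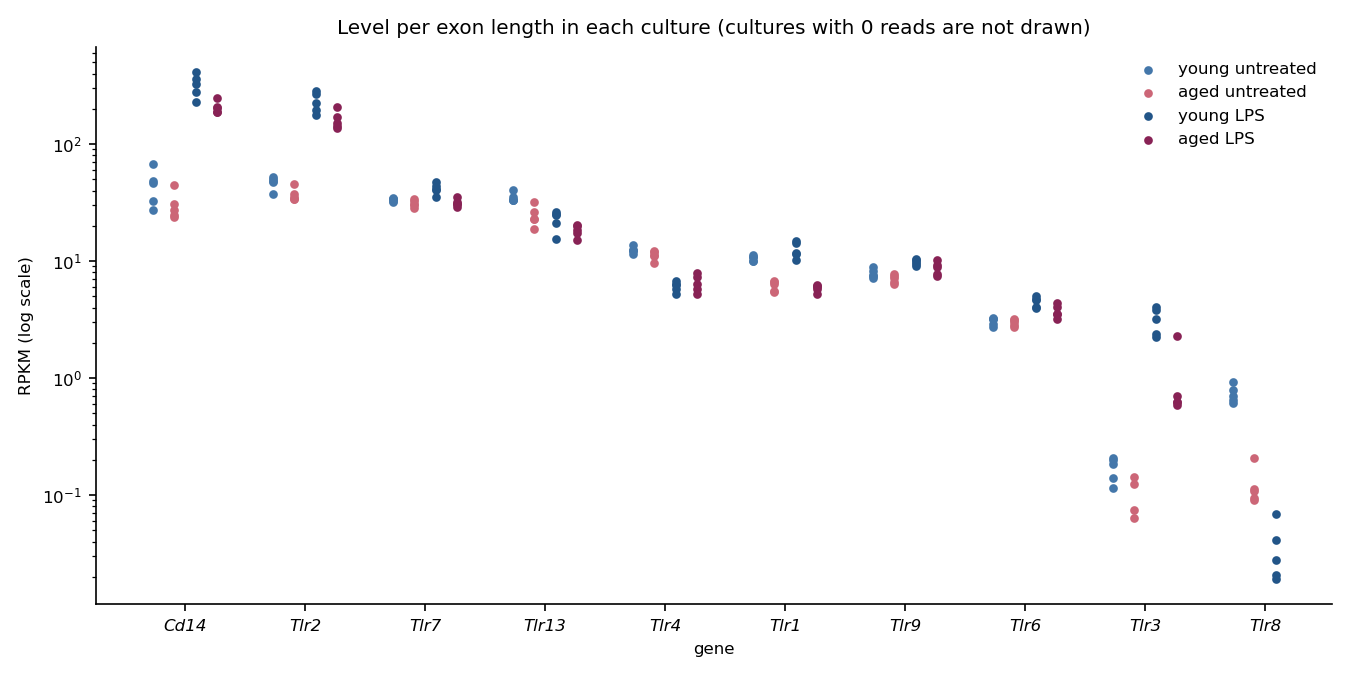
RPKM (normalized to exon length and library size, log axis) of each gene in every culture, 5 points per group, in 4 groups. Cultures with 0 reads are not drawn, which leaves out all 5 aged LPS cultures for *Tlr8* and 1 aged untreated culture for *Tlr3*. *Cd14* and *Tlr2* stand highest with LPS at mean levels of 162 to 320 RPKM.

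LPS raised 7 of the 10 genes and lowered 3 in young cultures, against 31.2% of all tested genes called higher and 33.5% called lower (edgeR's quasi-likelihood test, Benjamini-Hochberg adjusted p below 0.05). In aged cultures, 5 were higher and 3 lower, against 27.5% and 26.9% of all genes. The 7 raised in young and the 5 raised in aged cultures include *Tlr3*. It passed the filter on low counts through the LPS-treated cultures, so its calls here are not independent of that filter. The median log2 fold change of the 10 was 0.32 in young and 0.16 in aged cultures (0.32 and 0.30 without *Tlr8*, which had no reads in aged LPS cultures, and 0.16 in aged cultures with *Tlr8* at its floor), where the medians of all tested genes were -0.01 and 0.00. With library sizes alone in place of TMM scaling, 27.3% of calls in young and 28.4% in aged cultures were higher, against 48.2% and 50.6% with TMM, and the median of all genes moved to -0.23 and -0.16. The counts of members then became 4 higher in young and 3 higher and 5 lower in aged cultures.

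The genes of the 10 that were called between ages were all lower in aged cultures, both with and without LPS. Without LPS, 3 of the 10 genes were lower in aged cultures (*Tlr1*, *Tlr8* and *Tlr13*; 7.81% of all genes were called lower) and 0 were higher (3.71% of all genes). By edgeR at an unadjusted p below 0.05 the counts were 5 lower and 0 higher, and by DESeq2 3 and 0. With LPS, 7 were lower (15.0% of all genes) and 0 higher (14.0% of all genes). At an unadjusted p below 0.05 the counts were 9 and 0, and by DESeq2 7 and 0. The 7 include *Tlr8*, for which both groups were at or under the floor, and *Tlr8* is also among the 3 lower without LPS and the 3 that fell with LPS in each age. Since it passed the filter through young untreated cultures, these counts are 6, 2 and 2 without it. The median log2 fold change of aged over young was -0.43 without and -0.45 with LPS (-0.35 and -0.40 without *Tlr8*), beside -0.01 and 0.01 for all tested genes. With library sizes alone, 70.1% of calls under LPS were higher in aged cultures in place of 48.3%, and 6 members were lower.

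The interaction, the LPS response of aged minus that of young cultures, was called for 0 of the 10 genes in either direction in edgeR, where 4.12% of all genes were called higher and 2.27% lower. At an unadjusted p below 0.05, 0 were higher and 2 lower (*Tlr1* and *Tlr7*), and DESeq2 called 0 higher and 1 lower (*Tlr7*). With the batch as a replicate block, edgeR called 1 lower, also *Tlr7*. The LPS response and the aged-to-young comparisons share groups, so their values are given side by side and were not set against each other.

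Markers of the microglial and macrophage lineage moved with age as well. Of the 11 markers, 4 were lower in aged untreated cultures (*Aif1*, *Csf1r*, *Adgre1* and *Spi1*) and 0 higher in edgeR, where 7.81% of all genes were lower and 3.71% higher. With LPS 5 were lower and 1 higher, against 15.0% and 14.0% of all genes. The summed marker level ranged over 2130 to 2859 CPM in young and 1723 to 2419 CPM in aged untreated cultures, and over 2505 to 3419 and 2011 to 2848 CPM with LPS. The part of this shift in the receptor values was not tested, and in bulk RNA fewer cells with a transcript and less transcript per cell cannot be told apart.

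*Cd14*, the LPS carrier, rose strongly with LPS and reached lower levels in aged cultures. The gene lies at chr18:36725067-36726798 (minus strand). Its level was 118, 80.8, 84.3, 47.6 and 56.7 CPM in young untreated cultures 1 to 5 and 43.0, 52.9, 77.5, 46.8 and 41.5 CPM in aged ones. With LPS it was 709.5, 565, 622, 394 and 479.6 CPM in young and 324, 358, 428, 322 and 349 CPM in aged cultures. The untreated groups overlapped, and with LPS only young culture 4 fell inside the aged range. The LPS response was a log2 fold change of 2.84 ± 0.21 (standard error, as for all log2 fold changes) in young and 2.77 ± 0.21 in aged cultures (adjusted p = 5.34e-11 and 1.73e-10 in edgeR).

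Under LPS, *Cd14* was lower in aged cultures, at -0.64 ± 0.19 on the log2 scale (edgeR adjusted p = 0.0166), in 5 of 5 batches. The call was lost without batch 1 (adjusted p = 0.0509) or batch 2 (0.0895). In untreated cultures the difference was -0.56 ± 0.21 with an adjusted p of 0.0782 in edgeR, and 0.0215 with the replicate block, and it was lower in 5 of 5 batches, from -1.45 in batch 1 to -0.02 in batch 4. The summed level of the 4 LPS-response genes was 23.6 to 127 CPM in young and 2.34 to 7.39 CPM in aged untreated cultures. Of the 4 genes, 2 were called lower in aged cultures. Most of the summed level was *Acod1*, at 20.97 to 121 CPM (median 22.6) in young and 2.00 to 6.33 CPM (median 4.1) in aged cultures. The part of the LPS-response genes in the *Cd14* difference was not tested. The interaction of *Cd14* was -0.07 ± 0.28 (edgeR adjusted p = 0.939).

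*Tlr4*, which encodes the signalling receptor for LPS, fell with LPS in both ages and showed no called difference between ages. Young untreated cultures 1 to 5 held 68.8, 76.8, 69.3, 67.8 and 64.3 CPM, and aged ones 62.1, 66.7, 68.0, 53.6 and 61.6 CPM. With LPS, the level was 28.8, 34.6, 32.3, 37.8 and 35.6 CPM in young and 44.0, 32.0, 35.6, 28.9 and 40.6 CPM in aged cultures. All 10 LPS-treated cultures lay below all 10 untreated ones. The log2 fold changes with LPS were -1.04 ± 0.10 in young and -0.78 ± 0.10 in aged cultures (edgeR adjusted p = 2.37e-09 and 3.06e-07). Aged over young was -0.15 ± 0.09 without LPS (edgeR adjusted p = 0.307) and 0.10 ± 0.10 with LPS (0.502), where 3 of 5 batches were above 0 and 2 below.

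The partners of this receptor gave another pattern. *Ly96*, which encodes MD-2, the subunit that binds the lipid part of LPS, rose with LPS by 0.79 ± 0.14 in young and 0.72 ± 0.15 in aged cultures on the log2 scale (edgeR adjusted p = 4.10e-05 and 0.000259). It was lower in aged cultures under LPS, at -0.38 ± 0.14 (edgeR adjusted p = 0.0429). Without LPS the difference was -0.31 ± 0.15 (edgeR adjusted p = 0.191), and the interaction was -0.071 ± 0.205 (0.913). *Lbp*, the LPS-binding protein of plasma, held 0 to 4 counts per library and was not tested.

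*Tlr2*, the receptor of bacterial lipoproteins that pairs with TLR1 or TLR6, rose strongly with LPS and was then the most abundant of the receptors per exon length. Its level was 112, 159, 151, 143 and 146.5 CPM in young untreated cultures and 113, 103, 102, 105.5 and 136 CPM in aged ones. With LPS it was 858, 801, 681, 534 and 583 CPM in young and 416, 514, 625, 455 and 429 CPM in aged cultures. Aged culture 3, with 625 CPM, stood within the young range, and the other 4 aged LPS cultures lay below it. The response was 2.28 ± 0.13 in young and 2.13 ± 0.13 in aged cultures on the log2 scale (edgeR adjusted p = 9.46e-13 and 6.13e-12).

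*Tlr2* was lower in aged cultures under LPS, at -0.50 ± 0.13 on the log2 scale (edgeR adjusted p = 0.00454), in 5 of 5 batches. Without LPS the difference was -0.35 ± 0.13 (edgeR adjusted p = 0.088) and below 0 in 4 of 5 batches. It passed the threshold in 3 alternatives, with no filter on low counts (0.0482), with only these groups in the fit (0.0288) and without batch 1 (0.0434).

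*Tlr1*, which encodes the partner of TLR2 for triacylated lipopeptides, was lower in aged cultures both with and without LPS. Young untreated cultures held 33.2, 35.9, 37.7, 33.7 and 36.3 CPM, and aged ones 21.3, 18.2, 22.0, 22.5 and 18.4 CPM. With LPS, young cultures held 38.1, 47.4, 49.4, 34.4 and 39.0 CPM and aged ones 19.9, 20.5, 20.8, 17.4 and 19.1 CPM. Every aged culture lay below every young culture of either treatment. Aged over young was -0.79 ± 0.09 without LPS and -1.09 ± 0.09 with LPS (edgeR adjusted p = 4.92e-06 and 2.41e-08), and was below 0 in 5 of 5 batches in each.

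The LPS response of *Tlr1* was small. It was 0.24 ± 0.09 in young cultures (edgeR adjusted p = 0.0212), where 5 of 5 batches were above 0, and the call was lost with no filter on low counts (0.056), with library sizes alone (0.878) and without batch 1 (0.0541), 2 (0.102) or 3 (0.0935). In aged cultures it was -0.07 ± 0.09 (edgeR adjusted p = 0.564), with 2 batches above and 3 below 0, and with library sizes alone it was called lower (-0.23, 0.0378). The interaction of -0.31 ± 0.13 did not pass the threshold (edgeR adjusted p = 0.177), though it was below 0 in 5 of 5 batches.

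*Tlr6*, which encodes the partner of TLR2 for diacylated lipopeptides, had overlapping levels in untreated cultures of both ages, at 10.1 to 12.1 CPM in young and 10.2 to 11.8 CPM in aged cultures. It rose with LPS to 14.8 to 18.8 CPM and 11.9 to 16.4 CPM. The log2 fold changes were 0.56 ± 0.09 in young and 0.33 ± 0.09 in aged cultures (edgeR adjusted p = 1.20e-05 and 0.00479). Under LPS it was lower in aged cultures, at -0.27 ± 0.09 (edgeR adjusted p = 0.0304), a call that was lost without batch 2 (0.22), 3 (0.145) or 4 (0.0539), without aged LPS culture 3 alone (0.0831) and in 3 other alternatives. With library sizes alone the aged LPS response was not called (0.129). Without LPS the difference was -0.03 ± 0.09 (adjusted p = 0.882 in edgeR).

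*Tlr3*, the receptor of double-stranded RNA, had the largest rise with LPS of the 10, from near the floor. Its counts were 15, 17, 16, 9 and 11 in young untreated cultures and 10, 0, 13, 7 and 5 in aged ones. With LPS its level was 20.8, 20.0, 11.7, 12.5 and 16.6 CPM in young and 3.23, 3.05, 11.9, 3.25 and 3.62 CPM in aged cultures, from 167 to 241 and from 37 to 172 counts. Aged culture 3 stood at the low end of the young cultures, apart from the other 4 aged cultures. The LPS response was 4.19 ± 0.39 in young and 3.53 ± 0.48 in aged cultures on the log2 scale (edgeR adjusted p = 2.52e-09 and 1.48e-06).

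Aged over young, *Tlr3* was -1.68 ± 0.31 under LPS (edgeR adjusted p = 0.000259), below 0 in 4 of 5 batches and 0.03 in batch 3. Without aged LPS culture 3 it was -2.30 (adjusted p = 1.40e-07), and the LPS response of aged cultures was then 2.91 (2.66e-07), each 1.54 times away from the value with it. Without the whole of batch 3, the aged-to-young value was -2.40 (3.17e-07). Without LPS the difference was -1.02 ± 0.63 with an adjusted p of 0.323 in edgeR, at counts of 0 to 17, and the interaction of -0.66 ± 0.74 had an adjusted p of 0.712.

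*Tlr7*, a receptor of single-stranded RNA, rose by a small amount with LPS in young cultures, and its change in aged cultures did not pass the test. It held 139, 142, 138, 132 and 129.8 CPM in young untreated cultures and 134, 138.5, 116, 125 and 124 CPM in aged ones. With LPS it held 192, 179, 168, 144.5 and 166 CPM in young and 129.9, 126, 144, 126 and 119 CPM in aged cultures. All 5 young LPS cultures lay above all 5 aged LPS cultures, whose range overlapped that of untreated aged cultures. The response was 0.32 ± 0.07 in young cultures (edgeR adjusted p = 0.00018), in 5 of 5 batches, and 0.02 ± 0.07 in aged cultures (0.835), with 2 batches above and 3 below 0.

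Aged over young, *Tlr7* was -0.40 ± 0.07 under LPS (edgeR adjusted p = 8.47e-05), in 5 of 5 batches, and -0.10 ± 0.07 without LPS (0.386). The interaction was -0.30 ± 0.09 with an adjusted p of 0.0544 in edgeR. It was 0.0237 with the replicate block and 0.0242 in DESeq2, and it was below 0 in 4 of 5 batches, with 0.02 in batch 3. With library sizes alone its LPS response was called in neither direction in young cultures (0.10, adjusted p = 0.164) and called lower in aged ones (-0.14, 0.0498), and relative to the median of all genes these values were 0.33 and 0.02.

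*Tlr8*, the neighbour of *Tlr7* on the X chromosome and a related receptor, was rare, lower in aged cultures, and held few or no reads with LPS. Its counts were 41, 52, 42, 33 and 35 in young untreated cultures and 5, 5, 13, 7 and 6 in aged ones. With LPS, young cultures held 1, 3, 1, 2 and 1 counts and aged cultures 0 in all 5. No culture of one group reached the range of the group before it in this order. Aged over young without LPS was -2.55 ± 0.23 on the log2 scale (edgeR adjusted p = 1.28e-06). Its place among the tested genes rests on the young untreated cultures, and with no filter on low counts the adjusted p was 2.61e-08. The ratio of young to aged levels, from summed counts, was 5.94 with a 95% exact counting interval of 4.16 to 8.73.

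In young cultures, *Tlr8* was 21-fold lower with LPS, with a 95% exact counting interval of 10.5 to 49.3 (203 counts against 8; edgeR adjusted p = 7.04e-10). In aged cultures it was at least 1.96-fold lower with LPS, against the floor of 3 counts per library (36 counts against 0; edgeR adjusted p = 3.42e-06). Between the LPS-treated ages both groups were at or under the floor, and no fold is given there or for the interaction.

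*Tlr9*, the receptor of DNA with unmethylated CpG, rose slightly with LPS in both ages. It ranged over 24.7 to 31.2 CPM in young and 22.0 to 26.9 CPM in aged untreated cultures, and over 31.5 to 36.4 CPM and 25.6 to 35.5 CPM with LPS. The response was 0.32 ± 0.08 in young and 0.30 ± 0.09 in aged cultures (edgeR adjusted p = 0.00189 and 0.0046). The latter was not called without batch 3 (0.0906), and neither was called with library sizes alone (0.292 and 0.168). Aged over young was -0.16 ± 0.09 without LPS and -0.18 ± 0.08 with LPS (edgeR adjusted p = 0.247 and 0.116).

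*Tlr13*, the receptor of bacterial ribosomal RNA, was among the most abundant receptors in untreated cells and fell with LPS. Young untreated cultures held 142.5, 175, 150.5, 143 and 142 CPM, and aged ones 80.6, 113, 137, 98.1 and 97.5 CPM, all below the young range. With LPS, young cultures held 66.2, 108, 91.2, 112 and 105 CPM and aged ones 65.0, 79.9, 87.9, 74.4 and 86.4 CPM. Every young LPS culture lay below every young untreated one, whereas the aged groups overlapped between 80.6 and 87.9 CPM. The LPS response was -0.64 ± 0.13 in young and -0.42 ± 0.13 in aged cultures (edgeR adjusted p = 0.000158 and 0.00934).

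Aged over young, *Tlr13* was -0.52 ± 0.13 without LPS (edgeR adjusted p = 0.0112), in 5 of 5 batches. The call was lost without batch 2 (0.082) or batch 5 (0.0503). With LPS the difference was -0.30 ± 0.13 with an adjusted p of 0.0984, and 0.0318 with the replicate block, and it was below 0 in 5 of 5 batches.

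**Figure D2:**
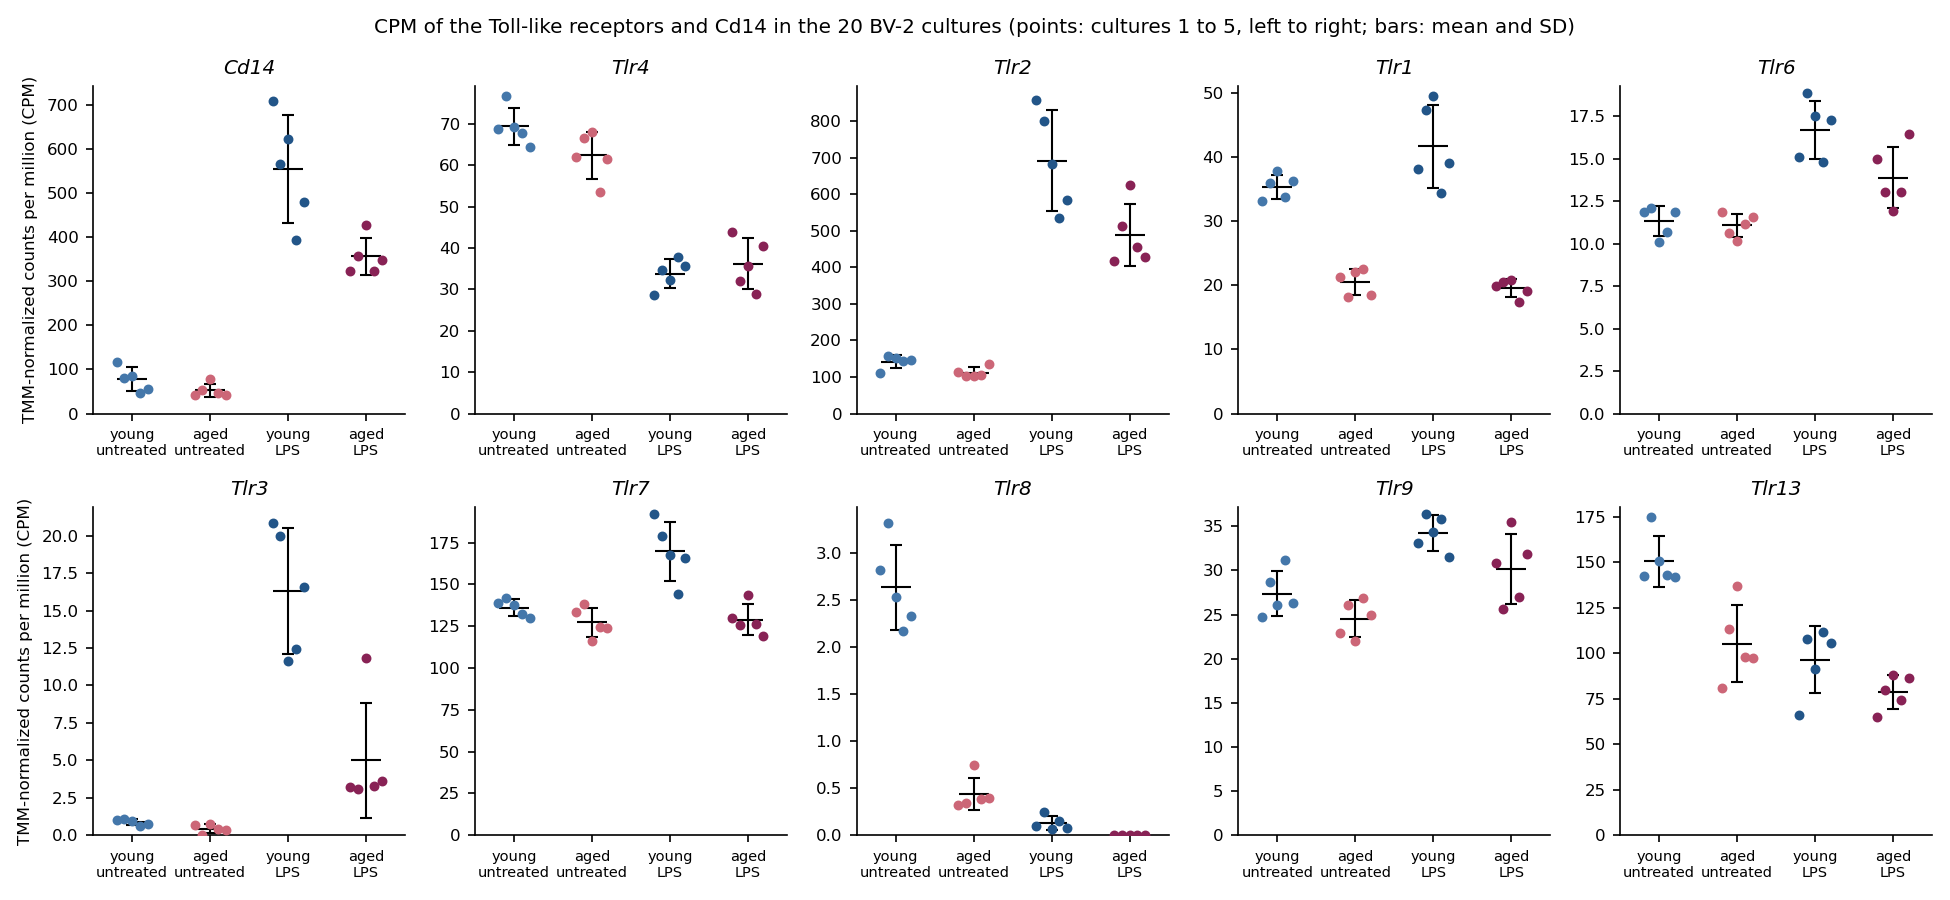
TMM-normalized CPM (linear axes from 0) of the 10 genes in the 4 groups, with 5 cultures per group as points and the mean and SD as bars. *Tlr1* separates the ages with and without LPS, *Cd14*, *Tlr2* and *Tlr3* rise with LPS, *Tlr4* falls, and *Tlr8* has 0 counts in all aged LPS cultures.

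The plot of LPS responses sets both ages side by side for the 9 genes that have a fold change in each. For 6 of them the aged response was above 0 and for 3 below, while in young cultures 7 were above and 2 below. No difference between the ages was called in edgeR for these 9, and 1 was called with the replicate block (*Tlr7*, adjusted p = 0.0237).

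**Figure D3:**
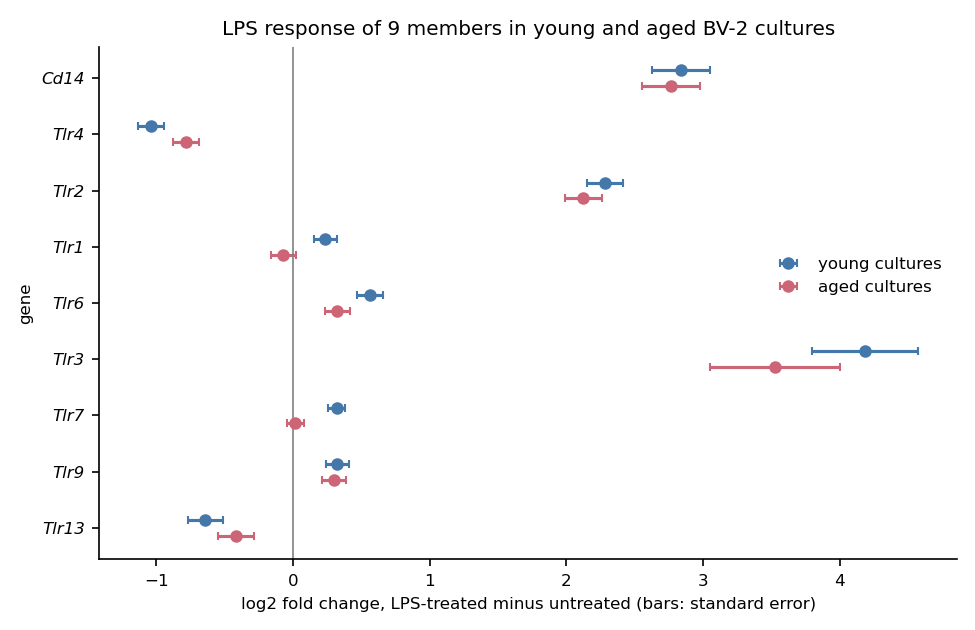
Log2 fold change with LPS in young and aged cultures for 9 genes, with standard errors as bars (edgeR, 5 cultures per group). *Tlr8* is left out because aged LPS cultures had 0 reads. *Tlr3*, *Cd14* and *Tlr2* lie above 2 in both ages, and *Tlr4* and *Tlr13* lie below 0 in both.

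Batches differed in how far the ages stood apart, and the order of batches was not the same for each gene. In batch 1 under LPS, the log2 ratio of aged over young was -1.13 for *Cd14* and -1.04 for *Tlr2*, and 0.61 for *Tlr4*. In batch 3 the same ratios were -0.54, -0.13 and 0.14. The aged LPS culture of batch 3 held the highest level of its group for 7 of the 9 genes with reads (*Cd14*, *Tlr1*, *Tlr2*, *Tlr3*, *Tlr7*, *Tlr9* and *Tlr13*) and the lowest for *Tlr6*. The untreated aged culture of the same batch was highest for 5 of 10 (*Cd14*, *Tlr3*, *Tlr4*, *Tlr8* and *Tlr13*) and lowest for 4. Among young untreated cultures, that of batch 2 was highest for 7 of 10 genes and lowest for 0.

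**Figure D4:**
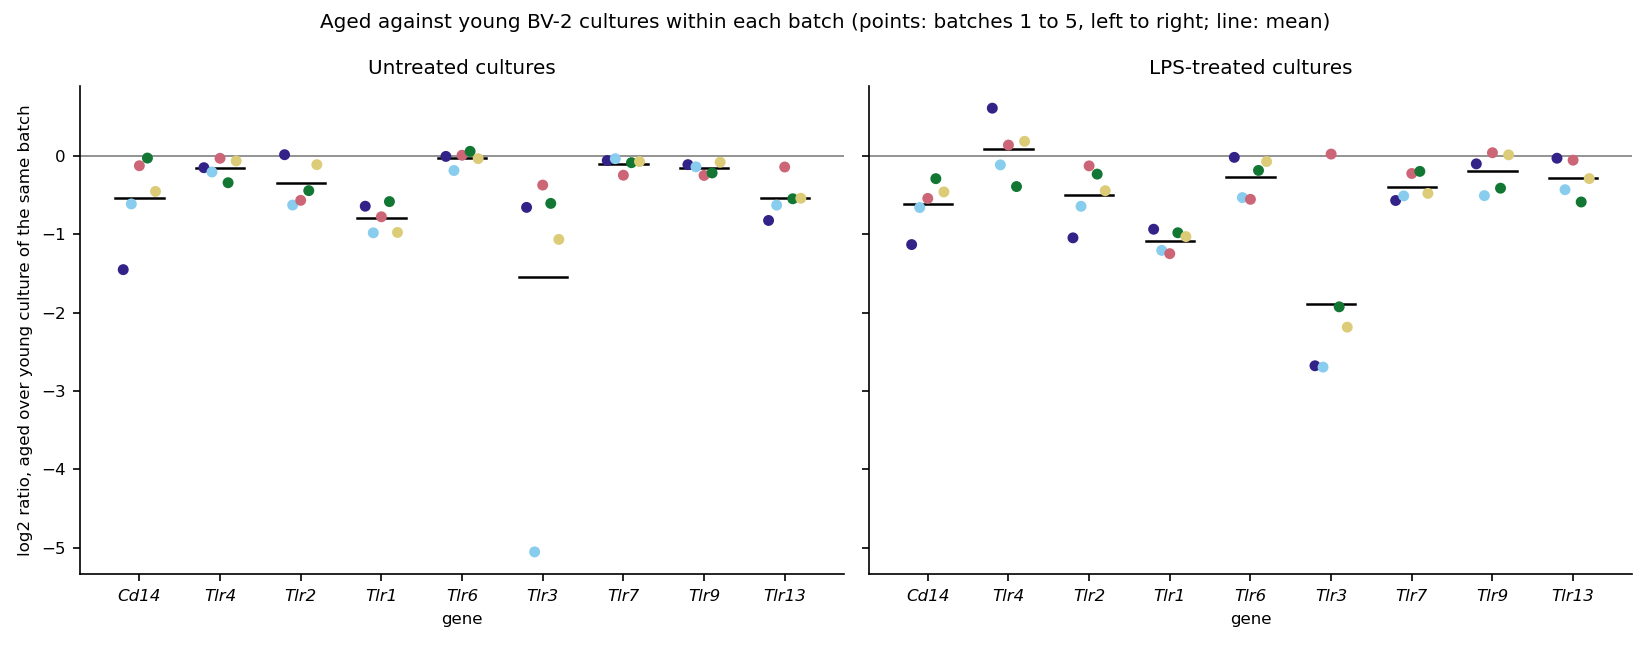
Log2 ratio of the aged over the young culture of each batch, without LPS (left) and with LPS (right), for 9 genes, with batches 1 to 5 as points and their mean as a line. A count of 0.5 was added before each ratio, and the point at -5.05 for *Tlr3* without LPS comes from an aged culture with 0 counts. *Tlr1* lies below -0.5 in every batch of both panels.

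Other receptors of the family were barely present. *Tlr5* held 0 to 6 counts per library, *Tlr11* 0 and *Tlr12* 0 to 17, and none of the 3 passed the filter. *Tlr12* was highest in young untreated cultures, at 5 to 17 counts, and held 0 to 8 counts elsewhere. With 0 counts of *Tlr11*, levels up to the floor of 3 counts in each library remain possible.

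Genes that act with the receptors were taken from 4 lists, of co-receptors, of folding and transport proteins, of adaptors and proximal kinases and of negative regulators. Their counts stand beside the shares of all tested genes, which were 31.2% higher and 33.5% lower with LPS in young cultures, 27.5% and 26.9% in aged cultures, and, for aged over young, 3.71% higher and 7.81% lower without LPS and 14.0% and 15.0% with it. Of 4 tested co-receptor and accessory genes, 2 rose and 1 fell with LPS in each age. *Cd180* and *Ly86* encode a receptor-like protein and its MD-1 partner that modulate LPS responses. *Cd180* rose by 0.34 ± 0.07 in young and 0.24 ± 0.07 in aged cultures, and *Ly86* fell by 0.28 and 0.40 on the log2 scale. In aged cultures 1 was lower without LPS (*Ly86*, -0.49 ± 0.09) and 3 with LPS (*Ly86* -0.62, *Ly96* -0.38 and *Cd180* -0.21).

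Of 12 folding, transport and processing genes, 5 rose and 3 fell with LPS in young cultures (31.2% and 33.5% of all genes) and 4 rose and 3 fell in aged ones (27.5% and 26.9%). *Slc15a3*, which encodes an endosomal transporter of peptides and histidine, rose most, by 3.21 ± 0.14 in young and 3.25 ± 0.14 in aged cultures. *Cnpy4*, which encodes a relative of the receptor chaperone CNPY3, and *Lgmn*, which encodes a lysosomal protease that cleaves endosomal receptors, fell in both ages, by 0.84 and 0.75 in young and by 0.52 and 0.62 in aged cultures. *Unc93b1*, which encodes the escort of the nucleic acid receptors to endosomes, rose by 0.37 ± 0.09 and 0.28 ± 0.09. It was lower in aged cultures, at -0.48 ± 0.09 without LPS and -0.56 ± 0.09 with LPS (edgeR adjusted p = 0.00106 and 3.93e-05). In all, 2 genes of this list were lower in aged cultures without LPS (*Slc15a3*, -0.48, and *Unc93b1*) and 4 with LPS, led by *Unc93b1*, *Slc15a3* (-0.44) and *Ctss* (-0.40), and 0 were higher.

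Of 16 adaptors and proximal kinases, 8 rose and 4 fell with LPS in young cultures and 7 rose and 3 fell in aged ones, beside the same shares of all genes. The largest rises were those of *Ikbke*, a kinase upstream of interferon regulatory factors (2.76 ± 0.11 and 2.92 ± 0.11), *Irak2*, a kinase of the MyD88 complex (2.27 ± 0.09 and 2.19 ± 0.09), and *Ticam1*, which encodes the adaptor TRIF (1.93 ± 0.11 and 1.66 ± 0.12). In aged cultures 3 were lower without LPS (*Irak2* -0.46, *Ikbke* -0.45 and *Irak1* -0.27) and 8 were lower and 1 higher with LPS (15.0% and 14.0% of all genes), led by *Irak2* (-0.54), *Pik3ap1* (-0.51), an adaptor to phosphoinositide 3-kinase, and *Ticam1* (-0.50). In the interaction, 2 of the 16 genes were lower and 0 higher, against 2.27% and 4.12% of all genes. The 2 were *Myd88*, the shared adaptor (interaction -0.38 ± 0.10, edgeR adjusted p = 0.023), and *Tbk1*, the kinase downstream of TRIF (-0.28 ± 0.07, 0.0136). Of the co-receptor and the folding, transport and processing genes, 0 were called in the interaction.

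Of 9 tested negative regulators, 5 rose and 3 fell with LPS in young cultures and 4 rose and 3 fell in aged ones, beside 31.2% and 33.5% of all genes in young and 27.5% and 26.9% in aged cultures. *Tnfaip3*, which encodes the ubiquitin-editing enzyme A20, rose by 4.05 ± 0.11 and 3.95 ± 0.11, and *Irak3*, an inhibitory relative of the IRAK kinases, by 3.12 ± 0.09 and 2.77 ± 0.09. Between untreated ages, 2 genes of this list were higher and 2 lower in aged cultures, against 3.71% and 7.81% of all genes. With LPS 2 were higher and 4 lower, against 14.0% and 15.0%. In aged cultures *Tnfaip3* was lower, at -0.62 without and -0.72 with LPS, and *Irak3* was lower with LPS, at -0.30. *Il1rl1*, the receptor of interleukin-33, was lower in aged cultures, at -0.57 without LPS. It fell with LPS by 1.39 in young and 0.59 in aged cultures. Its interaction of 0.80 ± 0.20 (edgeR adjusted p = 0.016) was the only 1 called in this list, against 4.12% of all genes called higher. *Sigirr*, an inhibitory receptor of the same superfamily, was scarce and higher in aged cultures, at 11 to 23 counts against 2 to 10 without LPS (log2 fold change 1.41 ± 0.33, edgeR adjusted p = 0.0071). *Sigirr* passed the filter on low counts through the aged untreated cultures, where it was highest, so tests against them are not independent of that filter. With LPS it held 4 to 10 counts against 0 to 1, at least 1.98-fold higher against the floor of 3 counts per library. It fell with LPS by 0.99 on the log2 scale in aged cultures and to at or under the floor in young ones.

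Median log2 fold changes of these 4 lists in the 5 comparisons ranged from -0.29 to 0.19, beside medians of all tested genes from -0.01 to 0.02. In the comparison of aged with young cultures under LPS, the co-receptors stood at -0.29, the folding and transport genes at -0.14, the adaptors and kinases at -0.14 and the negative regulators at -0.03.

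For each receptor the closest patterns over the 20 libraries were sought among 10883 genes, by Pearson correlation of log2 CPM. These values describe 4 groups that share treatment and age. *Tlr2* ran closest to *Nfkbia*, the inhibitor of NF-kappaB, and *Hcar2*, a hydroxycarboxylic acid receptor (r = 0.994 for both), and *Cd14* to *Igsf6* (0.993) and *Rhoc* (0.991). *Tlr3* ran closest to *Zup1* (0.98), a deubiquitinase, and *Uba7* (0.977), the activating enzyme of the ubiquitin-like protein ISG15. Like *Tlr3*, these genes were highest of their group in aged LPS culture 3, at 20.1 CPM for *Zup1* and 49.4 CPM for *Uba7*, where the other 4 cultures held 11.8 to 13.8 and 21.1 to 31.9 CPM. *Tlr4* ran with *Cd28* (0.972) and *Inpp5j* (0.97).

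*Tlr1* ran closest to *Sema4a* (0.949) and *Dram2* (0.931), *Tlr6* to *Cyb5a* (0.959) and *Gm21399* (0.957), and *Tlr9* to *Sbno2* and *Slc12a7* (0.882 for both). *Tlr7* ran closest to *9930111J21Rik1* (0.92) and *Il15* (0.919), the cytokine interleukin-15. *Il15* had means of 14.2 CPM in young and 3.63 CPM in aged LPS cultures, and aged culture 3 was again the highest of its group, at 8.48 CPM. *Tlr8* and *Tlr13* had *2610507B11Rik* in common among their closest genes (0.965 and 0.93), beside *Rnf150* (0.972) for *Tlr8* and *Ptpro* (0.915), a receptor tyrosine phosphatase, for *Tlr13*.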

How the data were processed

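RNA-Seq read counts per gene were analysed for 20 BV-2 cultures, 5 in each of 4 groups taken from the labels. The authors aligned reads to GRCm38 with STAR 2.6.1d after FastQC 0.11.8 and counted them with featureCounts 1.5.1, as the submitters' processing notes and the study's methods give, and deposited raw counts with no normalization. Libraries came from a stranded poly(A) kit. The strand, multimapping and overlap settings of the counting are not given in the sources used here. Of 55487 identifiers, 55141 were matched to GENCODE M21, and 0 columns of samples were left out.

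Counts were tested with edgeR 4.0.16 (limma 3.58.1, R 4.3.3) on the whole table. Genes passing filterByExpr (12799) were scaled by TMM, fitted in 1 quasi-likelihood model over 20 libraries and called at a Benjamini-Hochberg adjusted p below 0.05. Standard errors are the size of the log2 fold change over the square root of F. RPKM uses GENCODE exon-union lengths, log2 CPM a prior count of 2 and within-batch ratios an added count of 0.5. The floor was 3 counts per library, and counting intervals are exact conditional 95% intervals (scipy 1.17.1). Total counts of 11371508 to 16829292 set the precision, with TMM factors of 0.891 to 1.08. No pair of libraries of a group agreed within sampling noise (chi-square per degree of freedom 2.37 to 25.7).

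The labels give the replicate number as a batch, so same-numbered cultures were treated as paired in an alternative with the batch as a replicate block. Their deviations from the group means correlated at 0.146 on average (-0.214 to 0.394). Untreated and LPS-treated cultures of the same age correlated at 0.122 to 0.394. Between cultures of different ages the values were lower, at -0.214 to 0.275. Other alternatives were DESeq2 1.42.0, with and without the block, DESeq2 size factors, library sizes alone, no filter, at least 10 counts in every library, only the groups compared, and leaving out each batch. Leaving out aged LPS culture 3 alone was chosen after seeing the data. Named genes are the 9 receptors and *Cd14*, up to 3 called genes with the largest change per list and comparison, *Ly96*, *Lbp*, *Unc93b1*, *Tlr5*, *Tlr11* and *Tlr12*, and the 2 closest genes by Pearson correlation for each. The values of *Zup1*, *Uba7* and *Il15* in single cultures were singled out after they were seen. The genes and lists were chosen with earlier results of these data known. In the microglial marker list, 1 gene is not reported here by name. The code was tested on simulated data.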

Additional observations from a re-analysis of the deposited data

Results flagged for a closer look

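Each of 40 groups of 5 cultures (10 genes in 4 groups) was searched for a culture that stood apart. A culture was marked when its gap to the nearest of the others was large against the group's range. Chance marks about 1 in 20 groups. *Tlr8* held 0 counts in all 5 aged LPS cultures, so none of those could be marked. *Tlr3* stood at 11.9 CPM in aged LPS culture 3, where the other 4 cultures held 3.05 to 3.62 CPM. *Tlr8* stood at 0.742 CPM in aged untreated culture 3, where the others held 0.323 to 0.40 CPM, a gap that rests on 13 counts against 5 to 7. *Tlr13* stood at 174.6 CPM in young untreated culture 2, where the others held 141.6 to 150.5 CPM.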

How the results depend on the processing

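Of 676 alternative values for the 50 log2 fold changes of the 10 genes, 624 kept their direction and their side of the threshold, 21 lost the call, 20 gained one and 11 changed sign. Values that changed sign included 0.008 for *Tlr6* between untreated ages (without batches in turn, -0.053 to 0.008). For the aged LPS response of *Tlr1* the value was 0.007 (-0.125 to 0.007). For *Tlr4* between ages with LPS it was -0.028 (-0.028 to 0.213). With library sizes alone, the aged LPS response of *Tlr7* was -0.142 and called lower (edgeR adjusted p = 0.0498). That response was -0.024 without aged LPS culture 3 and -0.068 to 0.059 without batches in turn. The interaction ranged without batches in turn from -0.325 to 0.068 for *Tlr2*, from -0.11 to 0.057 for *Tlr9* and from -0.193 to 0.046 for *Cd14*, and was 0.036 for *Tlr9* with library sizes alone.

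Counts of members called changed as follows. Between untreated ages, 5 were lower with no filter and 2 to 4 without batches in turn. With library sizes alone, 4 rose with LPS in young cultures, and 3 rose and 5 fell in aged ones, where the share of all calls that were higher between untreated ages was 42.2% against 32.2% and that of the interaction 81.3% against 64.4%. In the interaction, 1 was lower in DESeq2 with and without the replicate block, in edgeR with the replicate block, with DESeq2 size factors, with at least 10 counts in every library and without aged LPS culture 3, and 0 to 1 without batches in turn. Between ages with LPS, 5 to 7 were lower without batches in turn. In edgeR the replicate block changed the calls of *Cd14* between untreated ages, *Tlr13* between ages with LPS and the interaction of *Tlr7*, and no other call of the 10 genes.

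*Tlr3* and *Tlr8* gave no value with at least 10 counts in every library. Depth limited both: untreated *Tlr3* and all aged or LPS-treated values of *Tlr8* rest on at most 17 counts per library. The fitted log2 fold change of *Tlr8* between LPS and untreated aged cultures moved by 1.61 times between edgeR and DESeq2 and is no bound. Each p-value describes 5 cultures per group of 1 cell line. The causes of these changes were not tested.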
